A study of Mus musculus with 23 samples.

Results

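The 10 genes described here belong to the bone morphogenetic protein (BMP) pathway and were followed through mouse muscle progenitors with raised or lost Notch1: the ligands Bmp2 and Bmp4, the secreted antagonists Fst and Grem1, the inhibitory SMADs Smad6 and Smad7, and the target genes Id1, Id2, Id3 and Msx1. They were taken by symbol, and all 10 of the 10 were found among the 21264 genes of the deposited expression table. The group was chosen by the measured levels of Bmp4 and Fst, which differ with Notch1 dose or with the setting, so in those comparisons the values of these 2 genes are a description and carry no test. The other 8 were tested with limma, with p-values adjusted over all genes tested.

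The cells are iPax3 myogenic progenitors, muscle precursors made from mouse embryonic stem cells that carry an inducible Pax3 transgene. RNA was sequenced from 23 libraries. In culture there were 4 control libraries (labelled WT) and 3 of N1OE, in which the active intracellular part of Notch1 (NICD1) was overexpressed. After engraftment, satellite cells of donor origin were re-isolated and gave 9 control libraries, 4 of N1OE and 3 of N1KO, in which Notch1 was knocked out. All groups share the iPax3 transgene, the labels do not name clones, promoters of the NICD1 construct, hosts or pooled animals, and no cultured N1KO library is among the samples. Nothing in the labels ties replicates to different cultures or mice, and the p-values therefore cover only the spread among these libraries, which may be technical.

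BMP ligands bind paired serine/threonine kinase receptors and act through SMAD1, SMAD5 and SMAD9, which enter the nucleus with SMAD4. Follistatin (Fst) and gremlin 1 (Grem1) bind ligands outside the cell. Follistatin binds activins and myostatin most tightly, while gremlin 1 binds BMP2 and BMP4. SMAD6 and SMAD7 block the pathway inside the cell. The Id genes are direct targets, and Id proteins hold E proteins such as TCF3 away from MyoD, which blocks muscle differentiation. In muscle, BMP signalling keeps satellite cells and their progeny dividing, and Id genes are also known to respond to Notch.

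Library totals ran from 11637817 to 29154176 reads, and 3 reads, taken as the floor of detection, are worth 0.103 to 0.258 CPM (counts scaled to library size, as the authors deposited them). Notch1 was at 61.3 to 105 CPM in cultured controls and 297 to 370 CPM in cultured N1OE. After re-isolation N1OE had 98.1 to 257 CPM and N1KO 15.6 to 52.6 CPM. The re-isolated controls form 2 sets by a suffix, GoF, in the deposited column headers that the labels do not explain: 5 are marked and 4 are unmarked. In culture every control header carries the suffix, as does that of N1OE replicate 1, while N1OE replicates 2 and 3 lack it. Notch1 was at 14.9 to 88.9 CPM in marked and 136 to 174 CPM in unmarked controls, which did not overlap. Every N1OE library lay above the marked controls and every N1KO library below the unmarked ones, while N1OE overlapped the unmarked and N1KO the marked. The singleton ratio, the number of genes seen with exactly 1 read divided by the number seen with exactly 2, describes a library at low counts. It was 1.08 to 1.5 in unmarked controls and 1.25 to 1.40 in N1KO, but 4.17 to 5.91 in marked controls and 4.18 to 6.82 in N1OE. The tests of Bmp2, Msx1 and the Id genes in re-isolated cells are given against each control set. The satellite cell marker Pax7 was read in all 16 re-isolated libraries, at 11.5 to 113 CPM in controls, 91.8 to 154 CPM in N1OE and 19.9 to 153 CPM in N1KO. In culture Pax7 was at 0 in 2 of 4 control libraries and reached 0.891 CPM in N1OE. In these bulk libraries fewer cells of a type and less RNA per cell cannot be told apart.

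Promoters are shown for Bmp4 and Msx1, a ligand and a target gene whose mean levels were higher in re-isolated N1OE than in the other groups. Each is the 250 bases before the start site in RefSeq (GRCm38.p6), read 5′ to 3′ on the gene's strand. Capitals mark E-boxes, CANNTG, the general letters bound by the protein class that includes MyoD and E proteins. Which protein binds a given site was not tested. Bmp4 is at chr14:46390670-46390919 on the minus strand and Msx1 at chr5:37824586-37824835 on the minus strand.
Bmp4: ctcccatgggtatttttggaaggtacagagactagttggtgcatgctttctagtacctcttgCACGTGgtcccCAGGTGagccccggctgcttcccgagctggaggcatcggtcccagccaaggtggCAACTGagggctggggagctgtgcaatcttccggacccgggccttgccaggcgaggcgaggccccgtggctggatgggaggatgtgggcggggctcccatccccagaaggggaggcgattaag
Msx1: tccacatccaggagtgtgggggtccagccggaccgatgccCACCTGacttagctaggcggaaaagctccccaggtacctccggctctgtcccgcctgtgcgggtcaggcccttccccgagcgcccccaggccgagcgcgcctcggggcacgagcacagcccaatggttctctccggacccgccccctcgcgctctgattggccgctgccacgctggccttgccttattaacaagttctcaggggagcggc
The Bmp4 window holds E-boxes at positions -188, -177 and -123, and the Msx1 window holds 1 at -210, counted back from the start site. On both strands, E-boxes were found in 66.2% of all 32851 promoters of that length. The core letters of the Notch effector RBPJ, TGGGAA, were in neither window and in 21.6% of all promoters, and the GC-rich SMAD1/5 letters GGCGCC were in neither and in 9.59% of all. These matches are descriptions of the letters, and a missing match says only that these letters are not in the window.

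Per kilobase of exon, the order of levels changed between the settings. In re-isolated controls the median level was 459 CPM per kb for Id3, 89.4 for Id1, 40.8 for Bmp4, 35.7 for Msx1, 22.7 for Id2, 13.8 for Fst, 5.38 for Smad7, 1.01 for Smad6, 0.796 for Bmp2 and 0.0494 for Grem1. Neighbours in that order overlapped in their ranges over libraries except Smad7 and Smad6, at 3.19 to 8.48 and 0.460 to 2.20 CPM per kb. In cultured controls the medians were 53.6 CPM per kb for Id3, 19.5 for Id1, 17.1 for Id2, 5.99 for Grem1, 5.6 for Smad6, 3.26 for Smad7, 3.19 for Bmp4, 1.54 for Fst, 0.116 for Bmp2 and 0.00749 for Msx1. Grem1 thus stood among the middle levels in culture and lowest after re-isolation, and Msx1 stood lowest in culture and above Id2 after re-isolation.

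**Figure D1:**
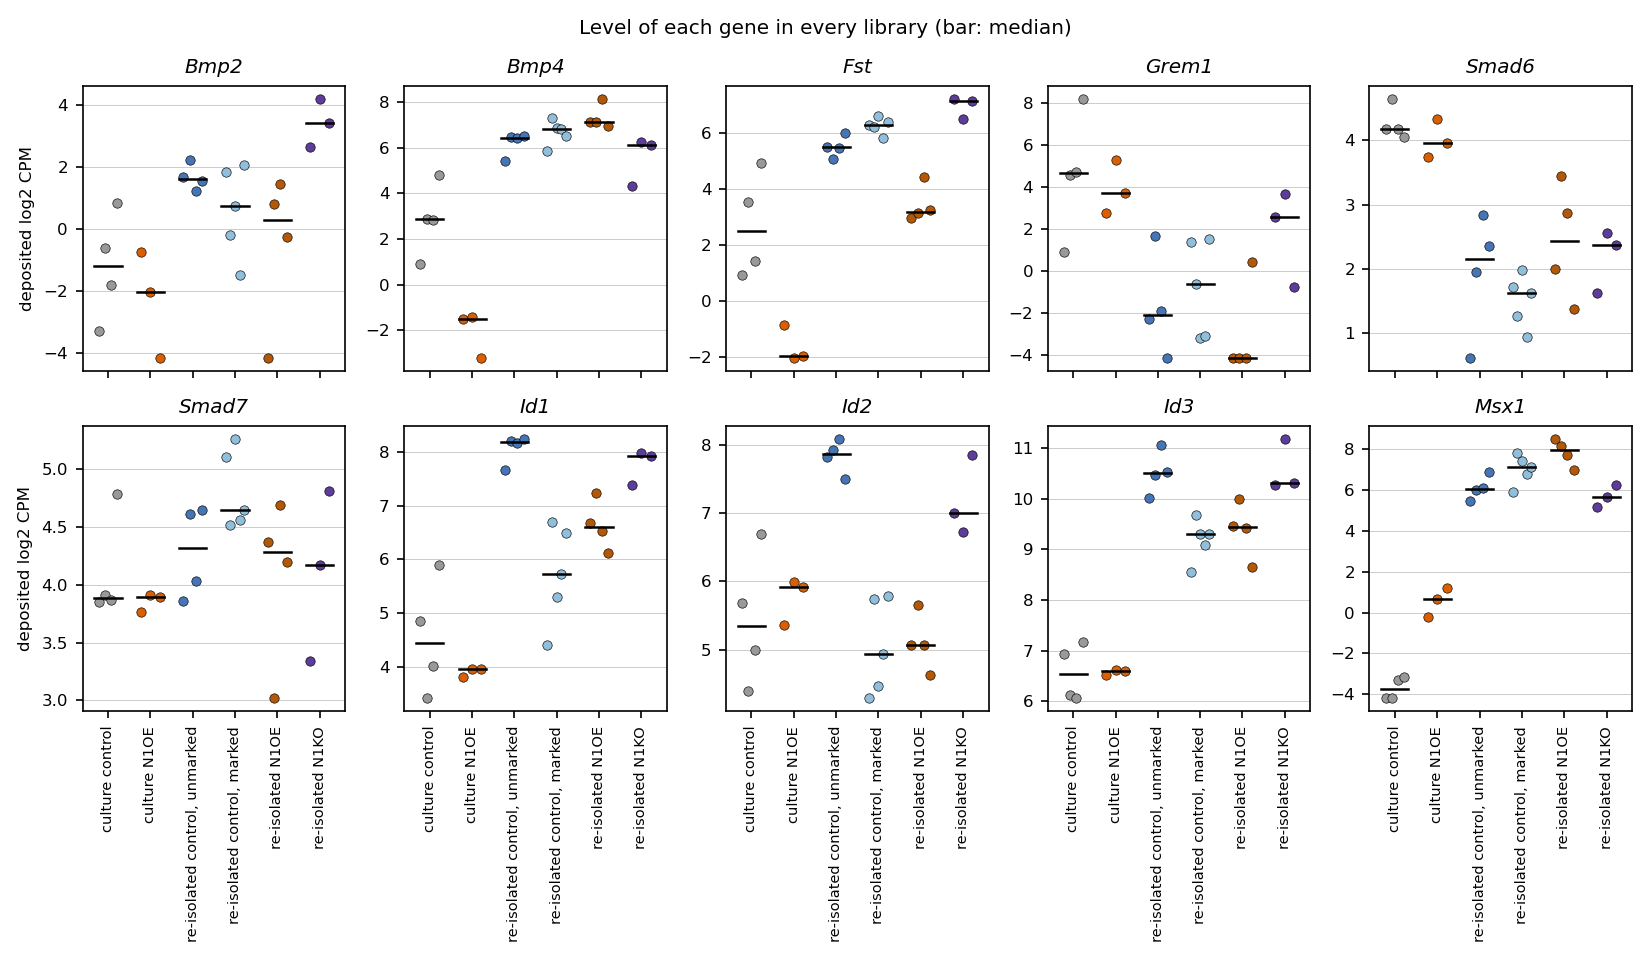
Deposited log2 CPM (y axis) of the 10 genes in each of the 23 libraries, by group (x axis), with re-isolated controls split by the header mark; points are libraries and bars medians. Fst in N1OE lies below every control library of the same setting, and Bmp4 in cultured N1OE lies below every cultured control. Id1, Id2 and Id3 separate the unmarked from the marked controls.

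Bmp4, a ligand of the pathway, is encoded on chromosome 14 at 46383520 to 46390669 (GRCm38, minus strand). It was low in cultured N1OE and high in re-isolated N1OE. Cultured controls had 1.79, 7.33, 7.01 and 27.7 CPM and cultured N1OE had 0.297, 0.315 and 0.0508 CPM. All 3 N1OE libraries lay below all 4 controls, and their 12 reads in all are close to the floor. The log2 fold change was -4.91 ± 0.92 (SE), and with so few reads its size depends on the small count added before the log. Re-isolated controls ranged from 42.3 through a median of 91.7 to 158 CPM, N1OE had 139, 140, 282 and 123 CPM, and N1KO had 20.0, 76.1 and 69.0 CPM. N1OE lay above all unmarked controls, which ended at 91.7 CPM, and overlapped the marked ones, which ranged from 57.8 to 158 CPM. N1KO overlapped both sets. The log2 fold change of N1OE was 0.67 ± 0.39 against marked and 1.13 ± 0.41 against unmarked controls, and that of N1KO was -1.11 ± 0.43 and -0.64 ± 0.44. Between settings, the N1OE differences of Bmp4 lay 5.78 ± 0.81 apart on the log2 scale, negative in culture and positive after re-isolation. The size of that gap depends on the same small count. The genes Gm15217 and Gm15222 overlap Bmp4 on the other strand, and since counting by strand is not stated, their reads cannot be told apart from those of Bmp4.

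Fst, which encodes follistatin, lies on chromosome 13 at 114452290 to 114458951 (minus strand). It was lowest in N1OE in both settings and highest in N1KO. Cultured controls had 1.84, 11.5, 2.65 and 29.98 CPM and cultured N1OE had 0.495, 0.189 and 0.203 CPM. The controls spread widely, yet all of them lay above the 3 N1OE libraries, and the log2 fold change was -4.32 ± 0.98 (SE). These N1OE libraries held 17 reads in all, close to the floor, so the size of that value depends on the small count added before the log. Re-isolated marked controls had 77.1, 74.1, 95.6, 56.5 and 82.5 CPM, and unmarked ones 44.8, 33.6, 43.6 and 63.4 CPM. Re-isolated N1OE had 7.68, 8.66, 21.1 and 9.39 CPM and N1KO had 146, 89.6 and 139 CPM. N1OE lay below the controls of both sets, while N1KO lay above all unmarked controls and overlapped the marked ones. The log2 fold change of N1OE was -2.82 ± 0.33 against marked and -2.07 ± 0.36 against unmarked controls, and that of N1KO was 0.68 ± 0.36 and 1.43 ± 0.39. Means in N1KO and N1OE, 125 ± 30.8 CPM (SD, n = 3) and 11.7 ± 6.28 CPM (SD, n = 4), differed 10.7-fold. Gm47040 overlaps Fst on the other strand and its reads cannot be told apart from those of Fst.

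The ratio of Bmp4 to Fst in CPM, built from the 2 genes that led to the choice, set re-isolated N1OE apart from the other groups. After engraftment it was 13.1 to 18.1 with N1OE, 0.749 to 2.62 in controls and 0.136 to 0.850 with N1KO, which overlapped the controls. N1OE replicate 3 was the highest of its group for both genes, with a ratio inside that range. In cultured N1OE, where both genes had few reads, the ratio was 0.250 to 1.67, and overlapped that of cultured controls, 0.636 to 2.65.

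**Figure D2:**
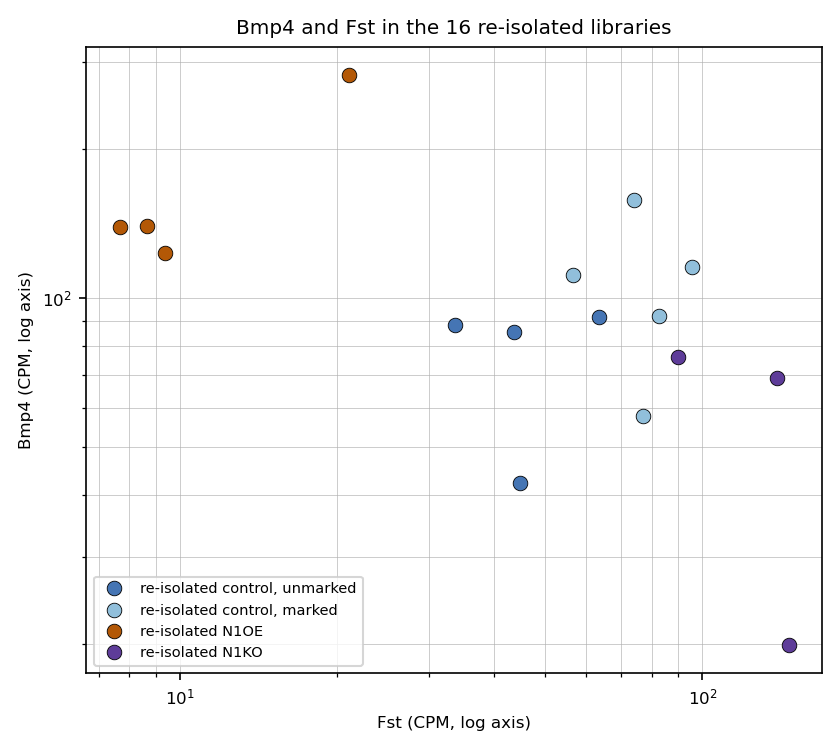
Fst (x axis) against Bmp4 (y axis), both in CPM on log axes, in the 16 re-isolated libraries, each a point coloured by group. The 4 N1OE libraries lie at 7.68 to 21.1 CPM of Fst and the 3 N1KO libraries at 89.6 to 146 CPM.

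Markers of fibro-adipogenic cells, connective tissue cells of muscle, were high in N1KO as a group, where Fst was high too. The summed level of their 8 listed genes, all in the table, was 4744 to 14555 CPM in N1KO, 1645 to 10000 CPM in marked controls, 212 to 1095 CPM in unmarked controls and 616 to 1422 CPM in N1OE. N1OE overlapped the unmarked controls in this sum and had less Fst. Among the N1KO libraries, replicate 2 had the highest sum, 14555 CPM, and the lowest Fst, 89.6 CPM. Pdgfra, which is on that list and defines these cells, was at 8.26 to 42.2 CPM in N1KO and 0.720 to 9.28 CPM in N1OE, ranges that overlapped. In culture the same sum was 57.4 to 282 CPM in controls and 13.1 to 15.2 CPM in N1OE, where Bmp4 and Fst were low too. The part of these markers in the values of Fst and Bmp4 was not tested.

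By the root mean square difference of standardised log2 CPM over the 16 re-isolated libraries, Socs7 (0.460), Syne2 (0.4657) and Crybg1 (0.476) were most like Bmp4, where the median of the 10683 genes compared was 1.31. Most like Fst were Il34 (0.320), Fhod3 (0.332) and Ptgis (0.339), against a median of 1.40. Il34, a cytokine, had 5.08 to 11 CPM in N1OE and 11.6 to 36.8 CPM in controls.

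Bmp2, the other ligand, on chromosome 2 at 133552159 to 133562885, was scarce, and N1KO had the most. Cultured libraries held 0.0460 to 1.72 CPM in controls and 0 to 0.545 CPM in N1OE, and Bmp2 did not pass the filter there. Re-isolated controls ranged from 0.303 through a median of 2.83 to 4.59 CPM, N1OE had 0, 1.70, 2.66 and 0.778 CPM, and N1KO had 6.13, 18.2 and 10.6 CPM. Every N1KO library lay above every control and N1OE library, and N1OE overlapped the controls. N1OE was lower than N1KO by a log2 fold change of -3.96 ± 1.07 (limma, adjusted p = 0.027). That call was lost in 5 of 16 fits that each left out 1 library, with adjusted p up to 0.127 without N1KO replicate 2, and the fold change was -2.75 without N1OE replicate 1, which had 0 reads. With no filter on low values the adjusted p was 0.0807. N1OE against controls gave -1.61 ± 0.84 (adjusted p = 0.268), -1.13 ± 0.95 against the marked (adjusted p = 0.514) and -2.20 ± 0.87 against the unmarked set (adjusted p = 0.0773). N1KO against controls gave 2.36 ± 0.94 (adjusted p = 0.298), 2.83 ± 1.04 against the marked (adjusted p = 0.127) and 1.76 ± 0.93 against the unmarked set (adjusted p = 0.31), none of them past the threshold.

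Grem1, the other antagonist, on chromosome 2 at 113746164 to 113758646 (minus strand), was lower in re-isolated than in cultured controls. Cultured controls had 1.79, 23.2, 26.5 and 291 CPM and cultured N1OE had 6.63, 38.8 and 12.9 CPM, so the groups overlapped (log2 fold change -0.68 ± 1.55, adjusted p = 0.795). After re-isolation controls ranged from 0 through 0.205 to 3.05 CPM, N1OE had 0 in 3 libraries and 1.30 in replicate 4, and N1KO had 5.79, 12.4 and 0.537 CPM. The ranges of the controls overlapped, since cultured replicate 1 had less than the highest re-isolated library, and 2 N1KO libraries reached cultured levels. Re-isolated controls were lower than cultured ones by -5.80 ± 1.31 (adjusted p = 0.00145). Against N1KO, N1OE gave -4.85 ± 1.58 with adjusted p = 0.0679, a value that passed with either control set alone in the fit (adjusted p = 0.0389 and 0.0349) and that rests on libraries at 0 reads.

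Smad6 and Smad7, the inhibitory SMADs, did not pass the test with Notch1 dose. Smad6 lies on chromosome 9 at 63953076 to 64022059 (minus strand) and had 16.6 to 24.9 CPM in cultured controls and 13.4 to 19.9 CPM in cultured N1OE, which overlapped. Re-isolated controls had 1.47 to 7.07 CPM, N1OE 3.94, 10.9, 7.22 and 2.54 CPM, and N1KO 3.04, 5.84 and 5.10 CPM. All 16 re-isolated libraries lay below all 7 cultured ones, and the difference between controls was -2.56 ± 0.39 (adjusted p = 5.18e-05). Smad7 had 14.3 to 27.5 CPM in cultured controls, 13.5 to 15.0 CPM in cultured N1OE, 14.4 to 38.4 CPM in re-isolated controls, 8.04 to 25.7 CPM in N1OE and 10.1 to 28.1 CPM in N1KO. Smad7 overlapped in all of these groups, and controls of the 2 settings differed by 0.48 ± 0.28 (adjusted p = 0.153).

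Id1, Id2 and Id3 differed between the 2 sets of re-isolated controls, which carry the same group label. Id1 lies on chromosome 2 at 152736251 to 152737410, Id2 on chromosome 12 at 25093799 to 25097140 (minus strand) and Id3 on chromosome 4 at 136143497 to 136145755. Id1 was at 203, 293, 287 and 303 CPM in unmarked controls and at 21.2, 104, 39.5, 53.3 and 89.8 CPM in marked ones. Id2 was at 226, 244, 273 and 182 CPM in unmarked and 19.5, 53.4, 22.1, 30.7 and 55.2 CPM in marked controls. Id3 was at 1033, 1424, 2132 and 1484 CPM in unmarked and 375, 822, 634, 547 and 629 CPM in marked controls. No library of one set reached the range of the other for any of the 3 genes, and the share of all genes that separate this way was not counted.

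Of the 10 genes, all tested here since this split was not used to choose them, the 3 Id genes were lower in marked controls, where 27.6% of all genes tested were called and 14% were called lower. The log2 fold change of marked against unmarked was -2.34 ± 0.40 for Id1 (limma, adjusted p = 0.00192), -2.79 ± 0.33 for Id2 (adjusted p = 0.000307) and -1.33 ± 0.28 for Id3 (adjusted p = 0.00561). All 3 stayed past the threshold in each of the 9 fits without 1 library. Fst was higher in marked controls by 0.75 ± 0.24 (adjusted p = 0.0343), a call lost in 5 of those 9 fits, with adjusted p up to 0.109 without replicate 3. For Bmp4 the difference was 0.47 ± 0.32 (adjusted p = 0.293). Among the bHLH partners of Id proteins, Myod1, the myogenic master regulator, was lower in marked controls by -3.23 ± 0.60 (adjusted p = 0.0028), and of 7 tested 2 fell. Summed satellite cell markers were 3132 to 3817 CPM in unmarked and 1602 to 2879 CPM in marked controls. Summed tenocyte and chondrocyte markers were 859 to 1143 CPM in unmarked and 303 to 603 CPM in marked controls. Summed fibro-adipogenic markers went the other way, at 212 to 1095 CPM in unmarked and 1645 to 10000 CPM in marked controls. The other marker lists overlapped between the sets. The part of these markers in the Id levels was not tested. The sets follow the header of control replicate 7, whose description lacks the mark. Split by description, none of the 3 Id genes passed (adjusted p = 0.251 for Id1 and 0.25 for Id2 and Id3), and limma called 0 of 13230 genes, with 2304 at an unadjusted p under 0.05, and limma-voom called 0, with 2172.

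Whether an Id gene passed with Notch1 dose depended on the control set. In re-isolated N1OE Id1 had 103, 150, 91.9 and 69.2 CPM, Id2 had 33.4, 50.5, 33.3 and 24.6 CPM and Id3 had 710, 1028, 689 and 403 CPM. All of these values lay below every unmarked control, for Id3 narrowly (1028 against 1033 CPM), and each gene overlapped the marked controls. Against unmarked controls, N1OE was lower by -1.43 ± 0.31 for Id1 (limma, adjusted p = 0.00303), -2.74 ± 0.32 for Id2 (adjusted p = 1.65e-05) and -1.13 ± 0.37 for Id3 (adjusted p = 0.0349). The Id3 call was lost in 5 of 11 fits without 1 library, with adjusted p up to 0.113 without control replicate 5. Against marked controls the values were 0.91 ± 0.39 (adjusted p = 0.152), 0.06 ± 0.37 (adjusted p = 0.948) and 0.20 ± 0.35 (adjusted p = 0.785), and over all 9 controls -0.13 ± 0.57 (adjusted p = 0.92), -1.18 ± 0.63 (adjusted p = 0.275) and -0.39 ± 0.41 (adjusted p = 0.612).

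In N1KO Id1 had 167, 253 and 243 CPM, Id2 had 128, 105 and 232 CPM and Id3 had 1233, 2334 and 1269 CPM. All 3 genes lay above every marked control and overlapped the unmarked ones. Against marked controls N1KO was higher by 2.04 ± 0.43 for Id1 (limma, adjusted p = 0.0114), 2.15 ± 0.40 for Id2 (adjusted p = 0.00567) and 1.40 ± 0.38 for Id3 (adjusted p = 0.0418). Against unmarked controls the values were -0.30 ± 0.33 (adjusted p = 0.693), -0.65 ± 0.35 (adjusted p = 0.319) and 0.07 ± 0.40 (adjusted p = 0.954). Without N1KO replicate 2 the call of Id1 was lost (adjusted p = 0.0553) and so was that of Id3 (adjusted p = 0.216), which was lost in 8 of 12 such fits.

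N1OE lay below N1KO in every library for each of the 3 Id genes, a description only, since the share of all genes that separate this way was not counted. In the fit with all controls the log2 fold changes of N1OE against N1KO were -1.13 ± 0.73 for Id1 (limma, adjusted p = 0.363), -2.09 ± 0.81 for Id2 (adjusted p = 0.12) and -1.20 ± 0.52 for Id3 (adjusted p = 0.169). The controls enter that fit only through the spread. With the unmarked controls alone in it, the same fold changes passed for Id1 (adjusted p = 0.0253), Id2 (adjusted p = 0.000302) and Id3 (adjusted p = 0.0456), and with the marked alone only Id2 of the 3 did (adjusted p = 0.00238).

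The split of the Id genes runs with the library measure given above. Libraries with a singleton ratio of 1.08 to 1.5, the unmarked controls and N1KO, had 105 to 273 CPM of Id2, and those with a ratio of 4.17 to 6.82, the marked controls and N1OE, had 19.5 to 55.2 CPM. N1OE and marked controls are alike in that ratio, as are N1KO and unmarked controls. In those pairings, of 4 against 5 and 3 against 4 libraries, none of the 3 Id genes passed the test. That does not show equal levels: Id1 in N1OE against marked controls gave 0.91 ± 0.39, at an unadjusted p under 0.05 in limma and limma-voom. For Fst, whose values led to the choice of these genes, marked controls had 56.5 to 95.6 CPM and N1OE 7.68 to 21.1 CPM, given as a description. The part of the singleton ratio in the levels of the Id genes and Fst was not tested. Notch1 levels also run with the sets of controls, and their part in the Id levels was not tested. Notch1 dose and whatever the ratio reflects, which was not tested, cannot be told apart where the ratio differs. That holds for the Id genes and any other gene, as in N1OE against N1KO.

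**Figure D3:**
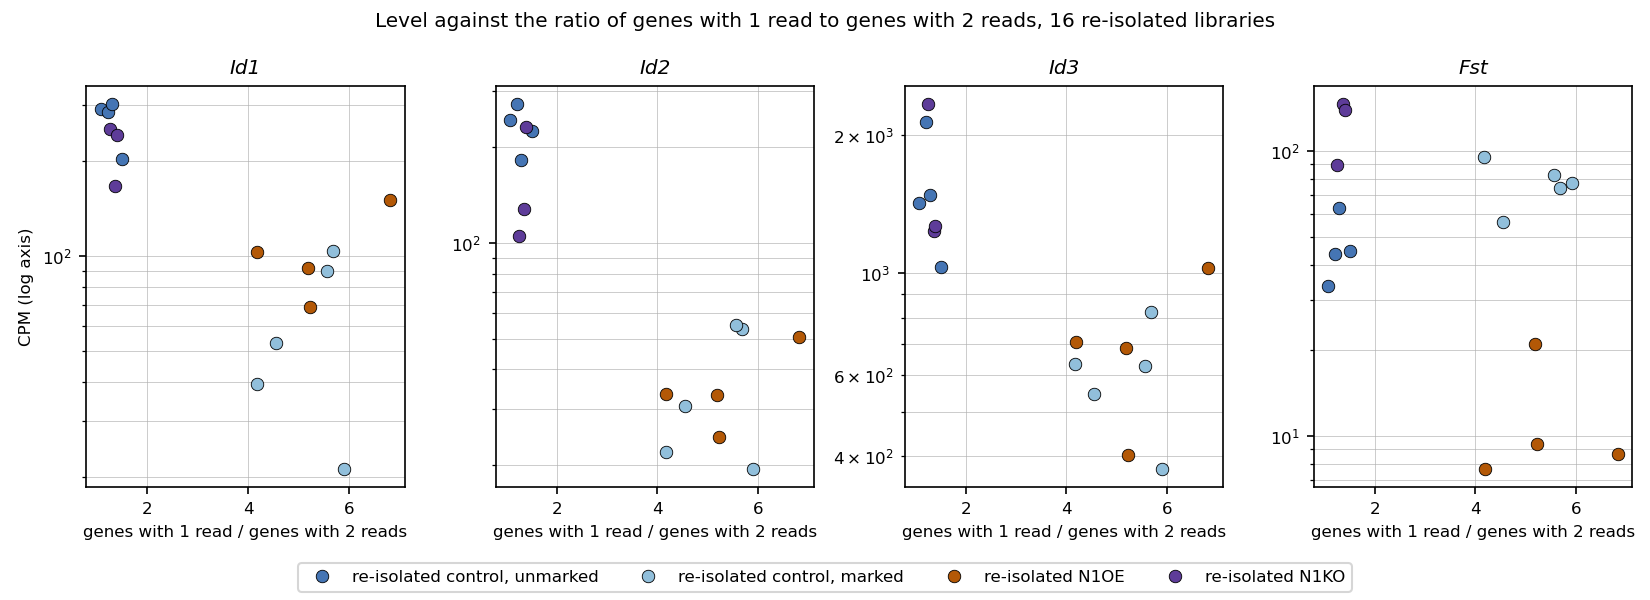
Level in CPM (log y axis) of Id1, Id2, Id3 and Fst against the singleton ratio (x axis, genes with exactly 1 read over genes with exactly 2) in the 16 re-isolated libraries, each a point coloured by group. Unmarked controls and N1KO stand at ratios of 1.08 to 1.5 with high Id levels, while marked controls and N1OE stand at 4.17 to 6.82 with lower ones.

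For Id1, Id2 and Id3 the cultured groups overlapped. Cultured controls had 10.7 to 59.5 CPM of Id1, 20.9 to 104 CPM of Id2 and 66.6 to 144 CPM of Id3, and cultured N1OE had 14.0 to 15.6, 41.1 to 63.4 and 91.8 to 97.8 CPM, all inside the range of the controls. The log2 fold changes were -0.63 ± 0.54 (adjusted p = 0.446), 0.31 ± 0.51 (adjusted p = 0.709) and 0.01 ± 0.29 (adjusted p = 0.989). Within libraries the balance of Id1 and Id2 differed by group in both settings: Id1 over Id2 was 0.506 to 0.573 in cultured controls and 0.246 to 0.339 in cultured N1OE, but after engraftment it was 0.900 to 1.94 in controls, 2.76 to 3.07 with N1OE and 1.05 to 2.40 with N1KO. The N1OE libraries lay below the controls in culture and above both control sets after re-isolation. These ratios were not tested.

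Msx1, a homeobox gene that holds back myogenic differentiation, lies on chromosome 5 at 37820485 to 37824583 (minus strand). It was all but missing from cultured controls and was high after re-isolation, most in N1OE. Cultured controls had 0, 0, 0.0464 and 0.0595 CPM, 2 reads in all, and cultured N1OE had 0.792, 1.51 and 2.23 CPM, 84 reads in all. The reads per total were 56.8-fold higher in N1OE, with an exact 95% interval of 15.2 to 476 that covers counting error only, and Msx1 did not pass the filter of that comparison. Marked re-isolated controls had 58.7, 225, 169, 111 and 136 CPM and unmarked ones 43.4, 62.6, 68.7 and 119 CPM. Re-isolated N1OE had 361, 280, 210 and 125 CPM, and N1KO had 36.3, 50.3 and 75.9 CPM. All N1OE libraries lay above all N1KO and all unmarked control libraries, and overlapped the marked controls.

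Of the 8 tested genes Msx1 was the one higher in N1OE than in N1KO, by 2.13 ± 0.50 (limma, adjusted p = 0.012). Without N1KO replicate 1 the adjusted p was 0.0812, and without N1KO replicate 2 it was 0.0501. Against unmarked controls N1OE was higher by 1.72 ± 0.37 (adjusted p = 0.00315), a call kept in each of 11 fits without 1 library. Leaving out an N1KO library there changes only the spread. N1OE differs in singleton ratio from both N1KO and the unmarked controls, so Notch1 dose and whatever that ratio reflects cannot be told apart in either comparison. Against marked controls it differed by 0.83 ± 0.38 (adjusted p = 0.184), and over all 9 by 1.23 ± 0.39 (adjusted p = 0.0633). N1KO against controls gave -0.90 ± 0.44 (adjusted p = 0.435), -1.30 ± 0.42 against the marked (adjusted p = 0.0836) and -0.41 ± 0.40 against the unmarked set (adjusted p = 0.652).

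**Figure D4:**
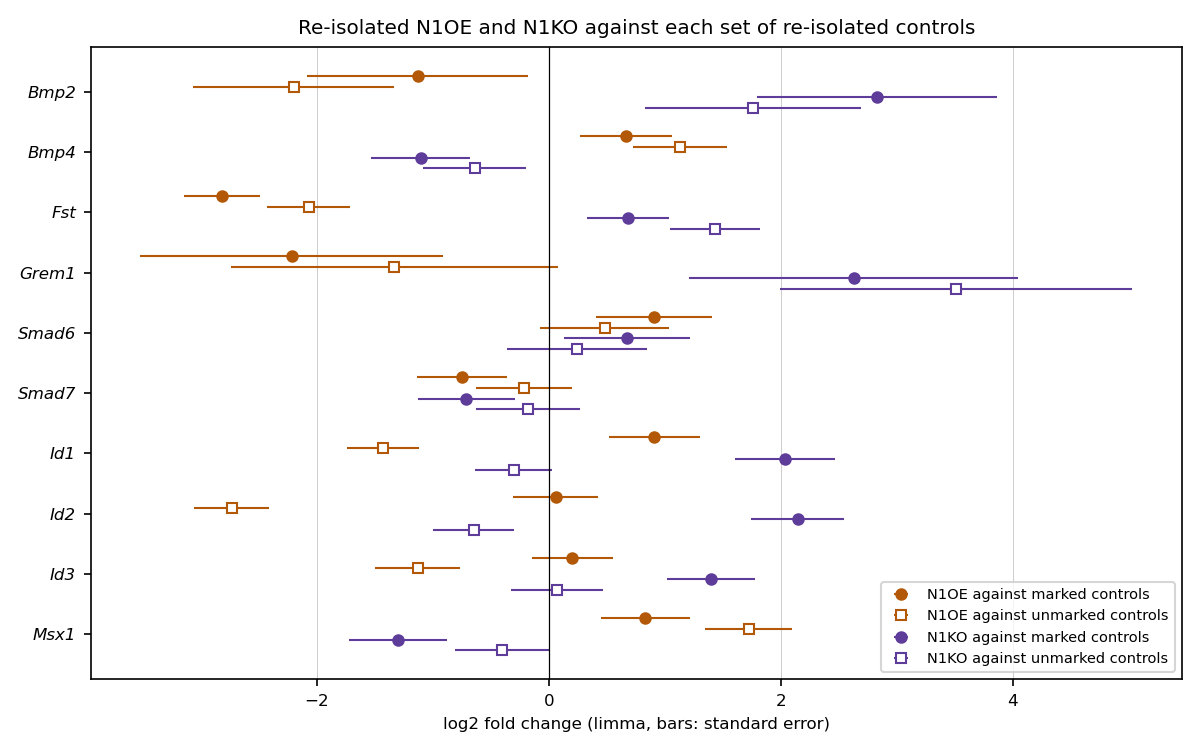
Log2 fold change (x axis, limma, bars are standard errors) of the 10 genes (y axis) in re-isolated N1OE and N1KO against the marked controls (filled circles) and the unmarked controls (open squares). Fst in N1OE is at -2.82 and -2.07 against the sets, while Id1 in N1OE is at 0.91 and -1.43.

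Counted over the 8 tested genes, cultured N1OE against control gave 0 of 6 that passed the filter, where 10.8% of all genes tested were called; none of the 6 had an unadjusted p under 0.05 in limma or limma-voom. Re-isolated N1OE against all controls gave 0 of 8, beside 7.06% of all genes, with 1 (Msx1) at an unadjusted p under 0.05 in limma and 2 in limma-voom, which called 0 too. Against the marked set it gave 0 of 8 beside 11.7%, with 2 at an unadjusted p under 0.05 by both tools, and against the unmarked set 1 higher and 3 lower beside 19.5% (9.33% higher and 10.1% lower). N1KO gave 0 of 8 against all controls beside 0.657%, with 2 (Bmp2 and Grem1) at an unadjusted p under 0.05 by both tools. It gave 3 higher against the marked set beside 3.92% (2.59% higher), and 0 of 8 against the unmarked set beside 7.29%, with 1 at an unadjusted p under 0.05 in limma and 2 in limma-voom. N1OE against N1KO gave 1 higher and 1 lower beside 7.35% (2.92% higher and 4.43% lower). With only the marked controls in that fit it gave 1 higher and 3 lower beside 11.2%, and with only the unmarked 1 higher and 5 lower beside 14.8%. The comparisons with re-isolated controls share those libraries and are not independent of one another.

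Between settings, 4 of the 8 were higher and 2 lower in re-isolated than in cultured controls, where 58.1% of all genes tested were called (24.1% higher and 33.9% lower). Msx1, Id3 (3.21 ± 0.41, adjusted p = 9.88e-06), Id1 (2.22 ± 0.69, adjusted p = 0.0119) and Bmp2 (2.29 ± 0.79, adjusted p = 0.0216) were higher, and Grem1 and Smad6 lower. Msx1 reached the 1 CPM of the filter in 0 and Bmp2 in 1 of the 4 cultured controls, so both entered this test through the re-isolated libraries, where they are high. Their calls, though counted among the 4 higher, are therefore no support. Bmp2 did not pass against the marked set (1.81 ± 0.97, adjusted p = 0.126), and neither did Id1 (1.18 ± 0.56, adjusted p = 0.0891), while Id2 was higher in the unmarked set (2.39 ± 0.41, adjusted p = 0.000541) and gave -0.40 ± 0.48 in the marked set (adjusted p = 0.481). The call of Bmp2 was also lost without cultured control replicate 1 (adjusted p = 0.108) or 3 (adjusted p = 0.065), and that of Id1 without cultured control replicate 2 (adjusted p = 0.0547). Cultured cells were lysed in Trizol and made into TruSeq stranded libraries, while low-input amplified cDNA was used after re-isolation, so setting and kit cannot be told apart. The difference between the N1OE effects of the 2 settings passed for 1 of 8, Msx1, beside 3.27% of all genes, 0.91% in its direction (-3.01 ± 0.65, adjusted p = 0.00805). With 2 reads in cultured controls that value depends on the small count added before the log, and it was -0.03 with log2(CPM + 1), 0.81 with log2(CPM + 5) and -3.70 with limma-voom (adjusted p = 0.425), none past the threshold.

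The rest of the pathway was read from 7 lists, which overlap and hold 83 further genes, 82 of them in the table. In cultured N1OE 63 passed the filter, which a gene can pass through 1 group alone, and 6 rose and 11 fell beside 10.8% of all genes called, with a median log2 fold change of -0.29 against 0.07 over all genes tested. Of 15 other BMP ligands 6 were tested and 4 fell. Bmp7, a ligand of the same family, was at 1.25 to 4.36 CPM in controls and at most 0.0990 CPM in N1OE, and it entered the test through the controls alone. Gdf6 fell from 7.24 to 37.7 CPM to 1.07 to 2.57 CPM (-3.53 ± 0.63, adjusted p = 0.0189). The modulator Bmper fell by 2.66 on the log2 scale (adjusted p = 0.00253). Among target genes Hey1, also a classic Notch target, rose by 4.73 ± 0.54 (adjusted p = 0.00489) and Id4 by 1.24 ± 0.24 (adjusted p = 0.0227). Of the partners of Id proteins Tcf3 rose by 0.47 ± 0.09 (adjusted p = 0.0239) and Myod1 fell by 2.81 (adjusted p = 0.0241).

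In re-isolated N1OE 4 of 71 tested pathway genes rose and 5 fell against all controls, beside 7.06% of all genes called, with a median of 0.01 beside 0.06 over all genes. Against the marked set 10 of 71 rose and 8 fell beside 11.7%, and against the unmarked set 10 of 69 rose and 9 fell beside 19.5%. Bmp6, Nog, Chrdl2, Tgfbr3 and Inhba passed in the same direction against each set. Bmp6, a further ligand, was at 131 to 169 CPM in N1OE and 8.09 to 92.8 CPM in controls (2.05 ± 0.51, adjusted p = 0.0174). Noggin (Nog), a BMP antagonist, was at 0.570 to 2.01 CPM and 3.94 to 38.8 CPM (-3.39 ± 0.68, adjusted p = 0.00391). Chrdl2, a chordin-like antagonist that is also on the list of satellite cell markers, rose by 4.19 ± 1.02 (adjusted p = 0.0158) and the co-receptor Tgfbr3 by 2.17 ± 0.41 (adjusted p = 0.00277). Inhba, which encodes an activin subunit and so a target of follistatin, was at 8.71 to 16.9 CPM in N1OE, 21.5 to 254 CPM in controls and 87.5 to 406 CPM in N1KO, and N1OE was lower than controls by -2.37 ± 0.58 (adjusted p = 0.016). Of the targets Tbx3 rose by 5.04 ± 1.01 (adjusted p = 0.00396) and Dlx2, which entered the test through other groups than N1OE, was at most 0.825 CPM in N1OE and 1.21 to 7.86 CPM in controls.

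In N1KO 1 of 71 was called against all controls, beside 0.657% of all genes. It was Dlx5, a homeobox gene, at 3.44 to 12.2 CPM in N1KO and at most 0.996 CPM in controls, so it entered the test through N1KO alone and its call is no support. Against the marked set 2 of 71 rose and 1 fell beside 3.92%, and against the unmarked set 7 of 69 rose and 6 fell beside 7.29%. N1OE against N1KO gave 5 higher and 11 lower of 71, beside 7.35% of all genes (2.92% higher and 4.43% lower), among them Gdf6 (-2.09 ± 0.42, adjusted p = 0.00396), Inhba (-3.68 ± 0.73, adjusted p = 0.00396) and the antagonist Nbl1 (-1.79 ± 0.40, adjusted p = 0.00858). In that comparison 5 of 16 antagonists and modulators were lower and 1 higher in N1OE. Endothelial markers, 8 of 8 in the table, summed to 44.3 to 99.9 CPM in N1OE, 56.3 to 164 CPM in N1KO and 6.38 to 46.0 CPM in re-isolated controls. Schwann and glial markers, 5 of 5, summed to 191 to 379 CPM in N1OE, 45.3 to 214 CPM in N1KO and 48.5 to 253 CPM in controls, and in culture to 8.42 to 9.24 CPM in N1OE and 23.9 to 35.6 CPM in controls. Erythroid markers, 4 of 4, summed to 2.59 to 284 CPM in N1OE, above every control, at 0.663 to 2.0 CPM, and to 0.281 to 7.38 CPM in N1KO. The 284 CPM came from N1OE replicate 1, and the next N1OE library had 6.24 CPM. Macrophage markers, 8 of 8, summed to 29.6 to 153 CPM in N1OE, 173 to 607 CPM in N1KO and 45.8 to 661 CPM in controls. Sums of pericyte and smooth muscle markers, and of tenocyte and chondrocyte markers, overlapped between N1OE and N1KO. The part of these lists in the differences of N1OE and N1KO was not tested.

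Between settings 9 of 10 SMADs and SMAD inhibitors were lower and 1 higher in re-isolated controls, beside 58.1% of all genes called (33.9% lower and 24.1% higher), with a median of -1.74 beside -0.23 over all genes. Smad4, the common partner, was lower by -2.11 ± 0.21 (adjusted p = 1.07e-06) and the repressor Ski by -2.05 ± 0.17 (adjusted p = 1.2e-07). Of 16 antagonists and modulators 9 were higher and 3 lower, with Crim1 lower by -3.95 ± 0.29 (adjusted p = 4.5e-08). The direction of such counts leans on the scaling, since scaling by median ratios moved the median of all genes from -0.23 to 0.03 and the calls over all genes from 3316 higher and 4658 lower to 4054 higher and 3925 lower.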

How the data were processed

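RNA was measured in 23 libraries, 7 cultured and 16 re-isolated. Per the submitters' processing notes, Trimmomatic 0.33, FastQC, featureCounts, edgeR and the mm10 build were used. For the aligner and annotation, these are not given in the sources used here. Deposited by the authors were log2 CPM values of 21264 genes with a small prior, the lowest being -4.19 at a count of 0. The steps between values gave back read counts, whole to within 0.05 reads for 100% of values in each library, and CPM and reads in the text come from these. Whether the values were adjusted before deposit was not decided. Exon lengths and positions come from GENCODE M21, in which 21186 gene IDs were found, and 6 of the 10 promoters were in the RefSeq table.

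The deposited log2 values were tested with limma 3.58.1 in R 4.3.3 (trend, two-sided, Benjamini-Hochberg over all genes tested, threshold 0.05) after a filter that kept genes reaching 1 CPM in 3 or more of the libraries fitted; a gene can pass through 1 group alone. The values were log2 already, so nothing was added to them. The 3 re-isolated groups shared a fit. Groups that did not overlap are given as a description, without the share of all genes that separate in the same way. Fits were tested on simulated data. The members, lists and tests were chosen with earlier results of these data known. Per list and comparison, up to 2 genes with the smallest p past the threshold were eligible to be named. Alternatives were other added counts, filters, scaling, limma-voom on recovered reads, the replicate number as a block, the control sets, and leaving out each library. Leaving out libraries within a control set, and counts at unadjusted p, were added after the data were seen.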

Additional observations from a re-analysis of the deposited data

Results flagged for a closer look

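Among 30 groups of 4 to 10 libraries checked (10 genes in 3 groups), 6 had a library far from the others, in each case the highest. The check set the gap to the next library over the range of CPM. Its cutoffs assume normal values, which CPM need not follow, so no rate by chance is given. Re-isolated N1OE replicate 3 was the highest for Bmp4, at 282 CPM where the next library had 140 CPM, and for Fst, at 21.1 CPM where the next had 9.39 CPM. Grem1 was at 291 CPM in cultured control replicate 4, where the next had 26.5 CPM, and at 1.30 CPM in re-isolated N1OE replicate 4, where the other 3 had 0 reads. Smad6 was at 24.9 CPM in cultured control replicate 2, where the next had 17.97 CPM. Smad7 was at 27.5 CPM in cultured control replicate 4, where the next had 15.0 CPM.

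The N1OE effect on Msx1 differed between re-isolated and cultured cells by -3.01 on the log2 scale in the test of the difference itself (limma, adjusted p = 0.00805). Cultured controls held 2 Msx1 reads in 4 libraries, and the value was -0.03 with log2(CPM + 1), 0.81 with log2(CPM + 5) and -3.70 with limma-voom (adjusted p = 0.425), none past the threshold.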

How the results depend on the processing

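Counts of genes past the threshold changed with the choice of controls. For re-isolated N1OE against control the count, 1000, was 1627 with marked and 2691 with unmarked controls, and for N1KO, 93, it was 544 and 1008, or 271 and 207 with the sets split by description. N1OE against N1KO gave 1040 and 2053 with unmarked controls. The difference between the N1OE effects gave 475, but 967 with marked, 1546 with unmarked and 801 with controls marked in the description, and 223 with limma-voom. N1KO also gave 240 with log2(CPM + 1), 321 with log2(CPM + 5) and 285 with limma-voom. Cultured N1OE gave 1325, and 743 with no filter. The 3645 genes that differed between control sets became 0 with the sets split by description (limma; 2304 at an unadjusted p under 0.05, limma-voom 0). The causes were not tested. Median ratio scaling changed the cultured calls from 583 higher and 742 lower to 436 and 855, and shifted the median of all genes by 0.107 for N1OE against N1KO.

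Directions reversed as follows. With marked controls, N1OE against control gave 0.91 for Id1, 0.058 for Id2 and 0.20 for Id3, and with controls marked in the description 0.80 for Id1 and 0.23 for Id3. With unmarked controls N1KO gave -0.30 for Id1 and -0.65 for Id2. Id2 between settings was -0.40 with marked controls and -0.26 by description. In the difference between the N1OE effects Grem1 was 0.26 with log2(CPM + 1) and 0.64 with log2(CPM + 5), where Fst was -0.72 and Msx1 0.81. There Id3 was 0.20 with marked controls and 0.23 by description, Smad7 0.029 and Id1 -0.80 with unmarked controls, and Id1 -0.24 with controls unmarked in the description. Id3 in culture was -0.052 with median ratio scaling.

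Without 1 library, the counts ranged from 158 (without cultured N1OE replicate 3) to 1765 for cultured N1OE, 562 to 1090 for re-isolated N1OE, 12 to 108 for N1KO, 465 to 1231 for N1OE against N1KO, 6892 to 8109 between settings, 240 to 501 for the difference and 2434 to 3821 between control sets. Fold changes that changed sign ranged, in culture, from -1.91 to 0.52 for Grem1, -0.040 to 0.73 for Id2 and -0.16 to 0.21 for Id3. Id1 in re-isolated N1OE ranged from -0.42 to 0.055. N1OE against N1KO ranged from -0.10 to 0.59 for Smad6 and -0.42 to 0.31 for Smad7. The difference ranged from -1.45 to 0.70 for Bmp2, -2.34 to 0.090 for Grem1 and -0.49 to 0.083 for Smad7.

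No label states that same-numbered libraries are pairs, and their deviations correlated at -0.156 to 0.468, highest for cultured N1OE and control replicate 3. Cultured N1OE and control replicate 1 share a form of header that other cultured libraries lack, and correlated at 0.0370. With the replicate block the counts were 1601 for cultured N1OE, 445 for re-isolated N1OE, 61 for N1KO, 712 for N1OE against N1KO, 5695 between settings and 345 for the difference, and Grem1 in culture was at 0.52. Under the block Msx1 in N1OE against N1KO had adjusted p = 0.0502 and Bmp2 between settings 0.0725. Few reads limit Bmp2, Grem1, and Bmp4, Fst and Msx1 in culture.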
